A study of Homo sapiens with 16 samples.

Results

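The NDRG family (N-myc downstream-regulated genes) has 4 members in human cells, NDRG1, NDRG2, NDRG3 and NDRG4, and all 4 were found by gene name among the 63187 genes of the deposited count table. The family was chosen by measured values, namely the levels of its members in the 4 groups within each batch and in batch 2 against the other batches. Those levels are therefore given as a description. All 4 were among the 19530 genes that passed the filter on low counts.

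RNA-seq libraries came from SK-N-BE(2), a MYCN-amplified human neuroblastoma line of adrenergic character. Cells of the WT group carried no construct named in the labels. The other groups were transfected with HIF-2α, the protein that EPAS1 encodes, as the full-length form (FL), as a form named NCTAD (ΔN-CTAD in the series design) or as a form named cIDR (Δc-IDR). Each group had 4 libraries, and replicate numbers 1 to 4 are also batch numbers in the labels, so every batch holds 1 library of each group. All cells grew in 21% O2 with 10% serum, and every library was prepared by poly(A) selection, with an input of 250 ng of RNA and 13 cycles of PCR. The labels name no vector, empty-vector control, promoter, clone or time after transfection, and transfection as such cannot be told apart from HIF-2α in a comparison with WT. They do not say whether libraries of a group came from separate cultures, so the spread between them may be technical.

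The totals ran from 38.6 to 56.1 M (mega) estimated counts per library. EPAS1 was at 13 to 28.1 CPM (counts per 1 M counts, on TMM-scaled totals) in WT and at 1320 to 5850 CPM in the transfected libraries, with native and transfected transcripts counted together. Sample names inside the deposited table call the FL libraries WT and the WT libraries CTRL, and they write the line as BE2c. Groups here follow the sample labels. The 10 adrenergic neuroblastoma markers looked at, among them PHOX2A, HAND2 and DBH, passed the filter and summed to 5110 to 6700 CPM. Libraries of batch 2 stood apart: 29% of all tested genes lay entirely above or entirely below the other 12 libraries there.

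NDRG proteins share an alpha/beta-hydrolase-like fold that lacks the residues needed for hydrolysis. NDRG1 is a cytosolic protein that is induced by low oxygen, iron depletion and cell differentiation, is repressed by MYCN and MYC, and is phosphorylated by the kinases SGK1 and GSK3B. NDRG2 is most abundant in astrocytes and muscle, and is described as a suppressor of growth signalling. NDRG3 is known as an oxygen-labile protein that the prolyl hydroxylase EGLN1 marks for destruction and that binds lactate. NDRG4 is found mainly in brain and heart, and is used as a marker of neuronal and enteric nerve cells. HIF-2α acts as a pair with ARNT at hypoxia response elements, short DNA motifs whose core is ACGTG or GCGTG.

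Start-site windows of NDRG2 and NDRG4 were searched for the HIF core motifs, and NDRG1 and NDRG3 were not searched here. The windows are shown because NDRG2 and NDRG4 showed no difference between WT and HIF-2α libraries beyond the spread, while BHLHE40, a repressor of the circadian clock and a classical HIF target, had the pattern nearest to NDRG1 outside batch 2. RefSeq windows of 250 bases before a start (GRCh38.p14) were available for 5 starts of NDRG2, 4 starts of NDRG4 and 1 start of BHLHE40. Both strands were searched for ACGTG and for GCGTG, and matches are in capitals, as CACGT or CACGC where they lie on the other strand. The windows shown are those with the most matches for each gene, at chr14:21025106-21025355 (minus strand), chr16:58463465-58463714 (plus strand) and chr3:4979187-4979436 (plus strand).
NDRG2: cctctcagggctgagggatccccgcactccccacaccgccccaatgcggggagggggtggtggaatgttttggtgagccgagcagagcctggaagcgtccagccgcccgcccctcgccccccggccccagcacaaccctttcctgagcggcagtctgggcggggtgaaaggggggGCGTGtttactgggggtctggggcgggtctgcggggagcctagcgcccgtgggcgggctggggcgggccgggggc
NDRG4: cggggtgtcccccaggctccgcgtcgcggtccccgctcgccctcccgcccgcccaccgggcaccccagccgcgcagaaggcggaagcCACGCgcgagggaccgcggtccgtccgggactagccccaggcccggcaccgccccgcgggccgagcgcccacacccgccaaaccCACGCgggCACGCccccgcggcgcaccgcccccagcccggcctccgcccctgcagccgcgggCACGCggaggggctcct
BHLHE40: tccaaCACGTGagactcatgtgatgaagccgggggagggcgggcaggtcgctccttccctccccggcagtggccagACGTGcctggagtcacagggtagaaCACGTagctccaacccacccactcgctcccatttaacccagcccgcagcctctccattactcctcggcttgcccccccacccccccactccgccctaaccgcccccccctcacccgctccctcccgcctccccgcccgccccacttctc

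The NDRG4 window shown held 4 matches to GCGTG and none to ACGTG, and the other 3 NDRG4 windows held 0 matches to either. The NDRG2 window held 1 match to GCGTG, and of the other 4 NDRG2 windows 2 held 1 match to GCGTG each, 1 of them overlapping the window shown. The BHLHE40 window held 4 matches to ACGTG, of which 2 are the strands of 1 palindromic CACGTG, the E-box that MYCN with MAX also binds. Among all 35116 windows of this length, 18.5% held ACGTG, 32.2% held GCGTG and 6.34% held CACGTG. A match is a run of letters and not a measured binding site.

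NDRG1 was the member whose mRNA differed between libraries by the most, from 4.15 to 233 CPM, a range of 56.1-fold over the 16 libraries. In WT cells it stood at 4.24, 109, 4.8 and 4.15 CPM in batches 1 to 4. In FL cells it stood at 17.4, 210, 19.2 and 20.3 CPM. In NCTAD cells it stood at 36.7, 161, 30.5 and 27.2 CPM. Every batch had its lowest NDRG1 level in the WT library, and every group had its highest level in batch 2. In cIDR cells NDRG1 stood at 52.3, 233, 38.4 and 38.4 CPM, the highest level of each batch. Because WT in batch 2 was above every transfected library of batches 1, 3 and 4, the groups overlapped when all batches were pooled. Groups also overlapped for the other members, so 0 of 4 NDRG genes were free of overlap between groups of 4 libraries. Against WT, 0.814%, 1.43% and 1.47% of tested genes were free of it for FL, NCTAD and cIDR. Between forms the shares were 0.707% (NCTAD against FL), 0.717% (cIDR against FL) and 0.712% (cIDR against NCTAD). In bulk RNA a larger share of cells with NDRG1 mRNA and more NDRG1 mRNA per cell cannot be told apart.

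**Figure D1:**
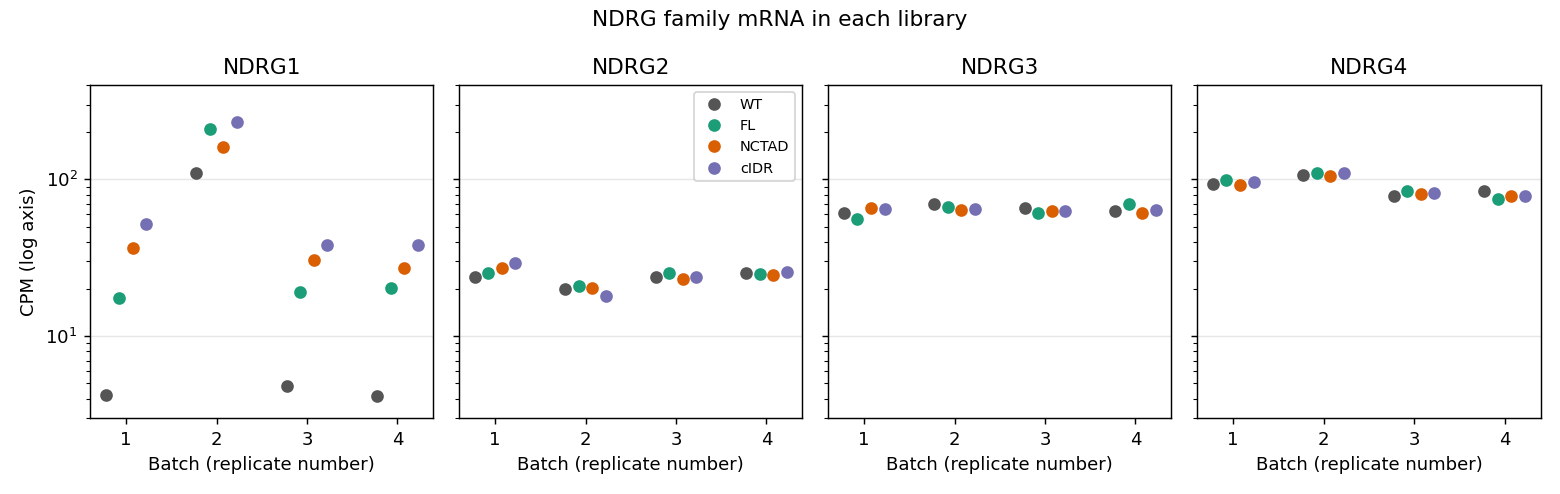
NDRG1, NDRG2, NDRG3 and NDRG4 mRNA (CPM, log axis) in each of the 16 libraries, by batch (x axis) and group (colour), with 1 point per library. NDRG1 is lowest in WT and highest in cIDR in every batch and lies between 109 and 233 CPM in batch 2, while the other members stay within 18 to 109 CPM throughout.

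Within batches 1, 3 and 4 the order was WT, FL, NCTAD, cIDR from low to high, with no exception. Over these batches the WT level was 4.4 ± 0.353 CPM (SD, n = 3), the FL level 19 ± 1.5, the NCTAD level 31.5 ± 4.86 and the cIDR level 43 ± 8.01. None of these neighbours overlapped: the highest library of each group was below the lowest library of the next. Such a separation of 3 libraries from 3 was found for 3.39% of tested genes in FL against WT, 3.39% in NCTAD against FL and 2.26% in cIDR against NCTAD. For the groups further apart it was found for 5.15% in NCTAD against WT, 5.63% in cIDR against WT and 3.09% in cIDR against FL.

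The ratio to the WT library of the same batch put the 3 forms of HIF-2α on a common scale. For FL it was 2.03, 0.95, 2.00 and 2.29 on the log2 scale in batches 1 to 4. For NCTAD the log2 ratio was 3.12, 0.57, 2.67 and 2.71. For cIDR the log2 ratio was 3.63, 1.10, 3.00 and 3.21. All 12 ratios were above 0, and for each form the smallest was that of batch 2. A higher level than WT in 4 of 4 batches was found for 5.33% of tested genes with FL, 8.85% with NCTAD and 10.5% with cIDR. Without batch 2 the mean log2 ratio was 2.11 ± 0.16 (SD, n = 3) for FL, 2.83 ± 0.25 for NCTAD and 3.28 ± 0.32 for cIDR. These are geometric mean folds of 4.31, 7.12 and 9.71. With batch 2 the means were 1.82 ± 0.59 (SD, n = 4), 2.27 ± 1.15 and 2.73 ± 1.12.

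**Figure D2:**
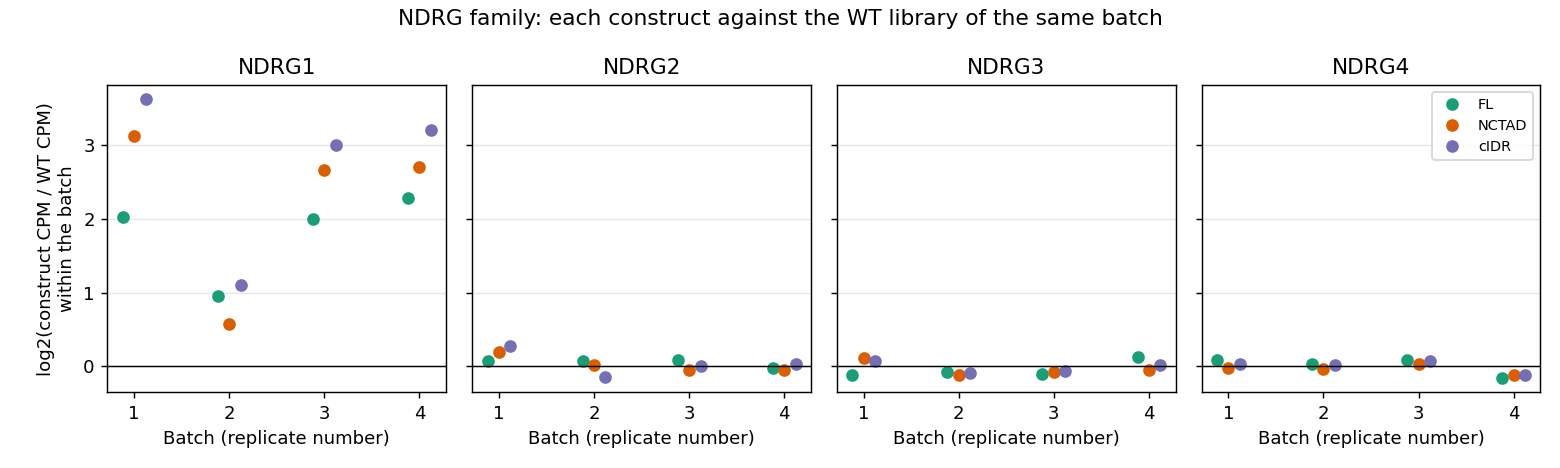
Log2 ratio of the CPM in each transfected library to that of the WT library of the same batch (y axis), by batch (x axis) and HIF-2α form (colour), for each NDRG gene. The NDRG1 ratios run from 0.57 to 3.63 and are smallest in batch 2 for each form, and those of the other members lie within 0.3 of 0.

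The forms also differed among themselves within batches. NDRG1 in cIDR libraries exceeded that in FL libraries by a log2 ratio of 1.59, 0.15, 1.00 and 0.92 in batches 1 to 4. It exceeded the NCTAD library of the same batch by 0.51, 0.53, 0.33 and 0.50, the narrowest spread of the 6 comparisons (SD 0.09, n = 4). A higher level in 4 of 4 batches was found for 4.87% of tested genes in cIDR against FL and 4.36% in cIDR against NCTAD. NCTAD against FL gave 1.08, −0.38, 0.67 and 0.42, with batch 2 in the other direction, and 6.02% of tested genes were higher in 4 of 4 batches there. EPAS1, which reads out the amount of construct mRNA together with the native gene, also ran in the order FL, NCTAD, cIDR in batches 1, 3 and 4. In FL libraries EPAS1 was at 1690, 2000, 3580 and 3160 CPM in batches 1 to 4. In NCTAD libraries EPAS1 was at 2200, 1320, 4230 and 3660 CPM, and in cIDR libraries at 4080, 2190, 5850 and 5820 CPM. The form of HIF-2α and the amount of its mRNA cannot be told apart in these comparisons. In batch 2 the order of EPAS1 was NCTAD, FL, cIDR, which is the order of NDRG1 there. Between batches 1, 3 and 4 of a form the 2 genes did not always run together. In NCTAD and in cIDR, batch 1 had the lowest EPAS1 of these batches and the highest NDRG1, at 36.7 and 52.3 CPM. In FL, batch 1 had the lowest of both. A dependence of NDRG1 on the amount of EPAS1 mRNA was not tested.

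**Figure D3:**
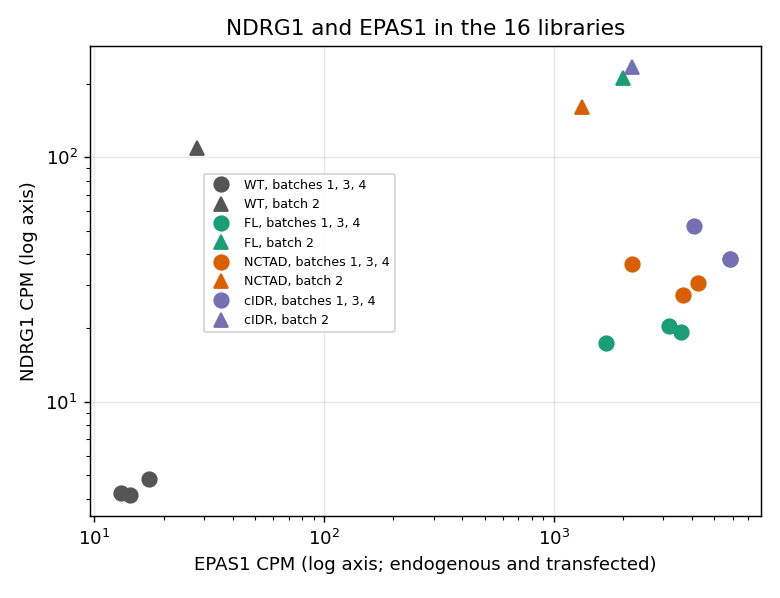
NDRG1 (y axis, CPM, log) against EPAS1 (x axis, CPM, log, native and transfected transcripts together) in the 16 libraries, coloured by group, with batch 2 as triangles. WT of batch 2 has 109 CPM of NDRG1 at 28.1 CPM of EPAS1, above the 17.4 to 52.3 CPM of the transfected libraries of the other batches.

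The scale of the comparison mattered for batch 2. In CPM differences, FL exceeded WT by 13.1, 101, 14.4 and 16.2 CPM of NDRG1 in batches 1 to 4. NCTAD exceeded WT by 32.5, 52.5, 25.7 and 23.0 CPM. For cIDR the difference was 48.1, 124, 33.6 and 34.3 CPM. On this linear scale the largest difference from WT was in batch 2 for each form, whereas on the log2 scale batch 2 had the smallest. Having the smallest log2 ratio in batch 2 was common, at 20.8% of tested genes for FL, 19.5% for NCTAD and 22.4% for cIDR.

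Across all tested genes, groups were compared with edgeR's quasi-likelihood test, and a gene passed at a Benjamini-Hochberg adjusted p under 0.05. In the model with group as its only term 0 of the 4 NDRG genes passed in any of the 6 comparisons. All tested genes passed at 0.0102% (FL against WT), 0.0256% (NCTAD against WT), 0.0102% (cIDR against WT) and 0% (each comparison between forms). The log2 fold change of NDRG1 was 1.13 ± 1.14 (SE) for FL, 1.06 ± 1.14 for NCTAD and 1.56 ± 1.15 for cIDR against WT, with an edgeR adjusted p of 1 in each. The count of NDRG genes was also 0 at an unadjusted p under 0.05, with limma on TPM and, over the 3 members to which it gave an adjusted p, with DESeq2, which gave NDRG1 none. Over all tested genes the share at an unadjusted p under 0.05 was 1.14%, 1.42% and 1.37% for FL, NCTAD and cIDR against WT and 0.886%, 0.906% and 0.609% for NCTAD against FL, cIDR against FL and cIDR against NCTAD. DESeq2 called 0.0565%, 0.0874% and 0.0411% of the genes to which it gave an adjusted p for the 3 forms against WT, and 0.0103%, 0% and 0.0154% for those comparisons between forms. limma called 0.00512% (FL), 0.00512% (NCTAD) and 0.0102% (cIDR) of all tested genes against WT on log2(TPM + 1), 0.0102% for each form on log2(TPM + 0.1), and 0% between forms on both. The members were chosen with such values known, so neither these counts nor those that follow are evidence about the family.

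With the batch added as a replicate block, NDRG1 had a log2 fold change of 1.56 ± 0.33 (SE) for FL, with an edgeR adjusted p of 0.121. It passed for NCTAD, at 2.03 ± 0.33 with an edgeR adjusted p of 0.0104, and for cIDR, at 2.49 ± 0.34 with an edgeR adjusted p of 0.00184. Under this model 0.102%, 0.456% and 0.486% of all tested genes passed for FL, NCTAD and cIDR against WT. Between forms NDRG1 did not pass with the block, with a log2 fold change of 0.46 ± 0.31 (NCTAD against FL), 0.93 ± 0.31 (cIDR against FL) and 0.46 ± 0.31 (cIDR against NCTAD), each with an edgeR adjusted p of at least 0.996. In these comparisons 0%, 0.0307% and 0.00512% of all tested genes passed.

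Batch 2 decided what the group model showed for NDRG1. When its 4 libraries were left out, NDRG1 passed against WT for FL (log2 fold change 2.09, edgeR adjusted p 2.46e-05), for NCTAD (2.83, edgeR adjusted p 7.14e-07) and for cIDR (3.28, edgeR adjusted p 1.3e-07). It then also passed for cIDR against FL, at 1.20 with an edgeR adjusted p of 0.00572, and not for NCTAD against FL, at 0.74 with an edgeR adjusted p of 0.314. All tested genes passed at 0.0524%, 0.204% and 0.173% against WT, at 0.0262% in cIDR against FL and at 0% in the other comparisons between forms. With the block as well, the calls of NDRG1 were the same, beside 0.0838%, 0.325% and 0.241% of tested genes against WT, 0.0524% in cIDR against FL, 0.0262% in NCTAD against FL and 0% in cIDR against NCTAD. Removing a single WT library had a like effect on the blocked FL result: without WT of batch 2 it was 2.34, with an edgeR adjusted p of 0.000551. The blocked NCTAD result did not pass without WT of batch 1 (1.78, edgeR adjusted p 0.0711), WT of batch 3 (1.87, 0.0658), WT of batch 4 (1.85, 0.0609), NCTAD of batch 1 (1.88, 0.0603) or NCTAD of batch 3 (1.94, 0.052). The blocked cIDR result passed with each of its 8 libraries left out in turn, at 2.25 to 3.20.

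NDRG1 was higher in batch 2 than in the other batches in every group. In WT cells batch 2 was 24.8-fold above the mean of batches 1, 3 and 4, and in FL cells 11.1-fold. In NCTAD cells it was 5.13-fold and in cIDR cells 5.41-fold above that mean. All 4 batch 2 libraries were above all other 12, at 109 to 233 against 4.15 to 52.3 CPM. Of all tested genes 14.4% were above the other 12 in batch 2. By the mean log2 ratio over the 4 groups, 3.21 on log2(CPM + 0.1), NDRG1 ranked 7 from the top among 12929 genes with a mean log2 CPM of at least 1. By the mean ratio to WT over the 4 batches it ranked 5 for FL, 5 for NCTAD and 4 for cIDR among the same genes.

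Batch 2 differed in other respects too. Summed fibroblast markers were at 191 to 203 CPM there against 91.8 to 136 CPM elsewhere, with COL1A2 under 1 CPM in all libraries. PDGFRB was at 119 to 134 against 63 to 109 CPM, LUM at 45.5 to 48.3 against 15.5 to 20.3 CPM, DCN at 17.2 to 18.7 against 8.09 to 12.6 CPM and COL1A1 at 4.93 to 6.44 against 1.69 to 2.9 CPM. Summed astrocyte markers were at 5.68 to 6.78 against 2.9 to 4.47 CPM, with AQP4, SLC1A2 and SLC1A3 under 1 CPM in all. Schwann cell and glial markers were at 16.9 to 19.7 against 14.2 to 17.6 CPM, with SOX10 and MBP under 1 CPM in all. Epithelial markers were at 2.13 to 3.37 against 0.769 to 1.72 CPM, and immune markers at 1.41 to 1.7 against 0.893 to 1.39 CPM. Their part in the NDRG values was not tested. The labels describe no difference in handling between batches.

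NDRG2 had a narrow range of 18 to 29.2 CPM. In WT cells it stood at 24, 19.9, 23.8 and 25.2 CPM in batches 1 to 4. In FL cells it stood at 25.4, 21, 25.3 and 24.9 CPM. In NCTAD cells it stood at 27.4, 20.2, 23.1 and 24.4 CPM, and in cIDR cells at 29.2, 18, 24 and 25.8 CPM. The 4 groups overlapped, and within batches their order changed from batch to batch. The log2 fold changes against WT were 0.05 ± 0.13 (SE) for FL, 0.03 ± 0.13 for NCTAD and 0.06 ± 0.13 for cIDR, each with an edgeR adjusted p of 1. NDRG2 was the member that was lower in batch 2: its 4 libraries there, at 18 to 21 CPM, were below all other 12, at 23.1 to 29.2 CPM. Of all tested genes 14.6% were below the other 12 in batch 2. On the deposited TPM scale the ranges met, at 20.1 to 23.8 in batch 2 and 22 to 30.6 elsewhere.

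NDRG3 was the steadiest member in CPM, with 56 to 69.4 CPM over the 16 libraries, a range of 1.24-fold. In WT cells it stood at 60.8, 69.4, 65.4 and 63.2 CPM in batches 1 to 4. In FL cells it stood at 56, 66.2, 61.2 and 69.4 CPM. In NCTAD cells it stood at 66.1, 63.6, 62.5 and 61 CPM, and in cIDR cells at 64.3, 65.2, 62.6 and 64 CPM. Neither the groups nor the batches separated it, since batch 2 ran from 63.6 to 69.4 CPM, inside the range of the others. The log2 fold change against WT was −0.03 ± 0.07 (SE) for FL, −0.03 ± 0.07 for NCTAD and −0.02 ± 0.07 for cIDR, each with an edgeR adjusted p of 1. On the TPM scale NDRG3 was not steadier than the others: its range was 1.5-fold, beside 1.52-fold for NDRG2 and for NDRG4. Outside batch 2 the TPM range was 1.5-fold for NDRG3, 1.39-fold for NDRG2 and 1.17-fold for NDRG4. The regulation for which NDRG3 is best known acts on the protein, which was not measured.

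NDRG4 was the member with the highest CPM outside batch 2, and it was higher still in batch 2. In WT cells it stood at 93.1, 107, 78.8 and 84.2 CPM in batches 1 to 4. In FL cells it stood at 99.3, 109, 83.7 and 75.1 CPM. In NCTAD cells it stood at 91.9, 105, 81.1 and 77.9 CPM, and in cIDR cells at 95.6, 109, 82.4 and 78 CPM. Within each batch the groups lay close together, and the CPM in batches 1 and 2 was above that in batches 3 and 4. In TPM, batch 1 (56.8 to 66.5) overlapped batches 3 and 4 (57.4 to 63.3), and batch 2 (79.9 to 86.5) was above both. Batch 2, at 105 to 109 CPM, was above all other 12 libraries, at 75.1 to 99.3 CPM, and its fold over the mean of the other batches was 1.25 (NCTAD) to 1.28 (cIDR). A share of 14.4% of all tested genes was likewise above the other 12 there. Against WT the log2 fold change was 0.02 ± 0.14 (SE) for FL, −0.03 ± 0.14 for NCTAD and 0.01 ± 0.14 for cIDR, each with an edgeR adjusted p of 1. With the block the SE of NDRG4 was 0.05, that of NDRG2 0.07 and that of NDRG3 0.06, and none of the 3 passed in any comparison.

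To compare levels between members, TPM (transcripts per 1 M, which allows for transcript length) was used. NDRG4 had the highest TPM in all 12 libraries outside batch 2, at 56.8 to 66.5, followed by NDRG3 at 24.6 to 37.1 and NDRG2 at 22 to 30.6, whose ranges overlap. NDRG1 had the lowest TPM in each of these libraries, at 2.4 to 28.6. Its share of the summed TPM of the 4 genes there was 1.96 to 2.39% (WT), 7.66 to 8.89% (FL), 11.4 to 13.2% (NCTAD) and 14.1 to 18.3% (cIDR). The shares of the groups did not overlap. In batch 2 NDRG1 made up 30.5% (WT), 47.5% (FL), 40.3% (NCTAD) and 48.5% (cIDR) of that sum. It was the highest member in the 3 transfected libraries of that batch, and NDRG2 was the lowest in all 4. The summed TPM of the family was 112 to 156 outside batch 2 and 207 to 273 in it.

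**Figure D4:**
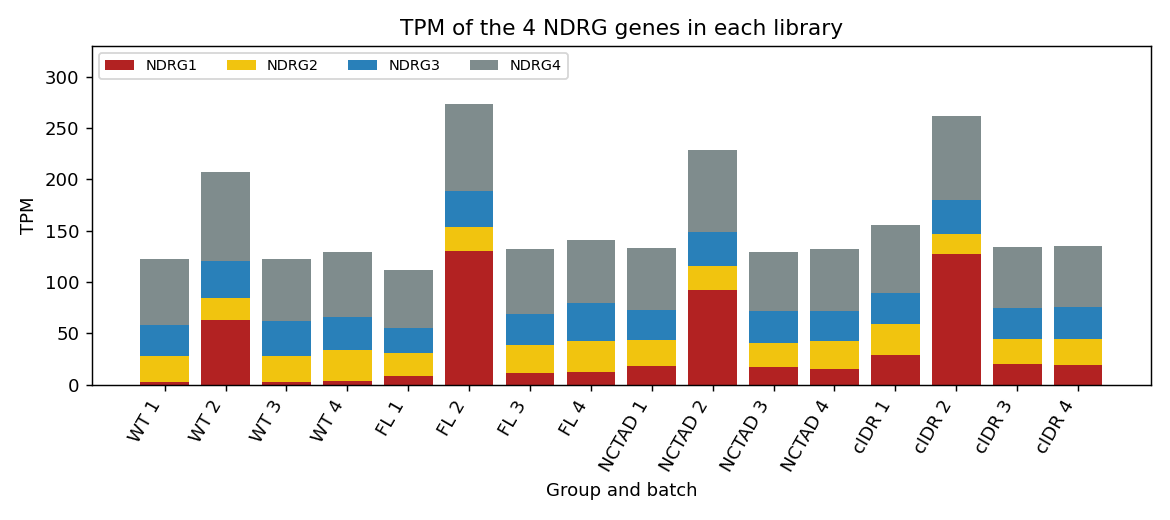
TPM of NDRG1, NDRG2, NDRG3 and NDRG4 (stacked bars, y axis) in each library, named by group and batch (x axis). NDRG1 takes 1.96 to 18.3% of the stack outside batch 2 and 30.5 to 48.5% in batch 2, where the whole stack reaches 207 to 273 TPM.

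On the GRCh38 assembly with GENCODE 29 annotation, NDRG1 lies on the minus strand at chr8:133237171-133302022, NDRG2 on the minus strand at chr14:21016763-21070872, NDRG3 on the minus strand at chr20:36651766-36746078 and NDRG4 on the plus strand at chr16:58462846-58513628. NDRG2 overlaps 8 other annotated genes. Of these, ARHGEF40 on the opposite strand was the one with more than 3 estimated counts in any library, at a median of 2250 estimated counts per library, and the sources used here do not state whether counting used strand. NDRG1 overlaps no other annotated gene, NDRG3 overlaps RF00019 and NDRG4 overlaps RNU6-103P, and both of these were at 0 in all libraries.

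The estimated count of NDRG1 was not whole in 7 of 16 libraries (43.8%, tolerance 0.01), against 9.24% of values over all genes and 0% for NDRG2, NDRG3 and NDRG4. The ratio of count to TPM, which follows the length of the transcripts to which reads were assigned, ran from 0.776 to 1.1 of its mean over the libraries, lowest in WT of batch 4. Its coefficient of variation was 7.06% for NDRG1, 5.15% for NDRG2, 0.955% for NDRG3 and 5.35% for NDRG4, beside a median of 3.9% over 11861 genes. For NDRG1 the mean of that ratio was 1 in batch 2 and 0.998 elsewhere.

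The hypoxia list holds 22 genes known to be induced through HIF, and all 22 were tested. In edgeR's group model 0 of 22 passed against WT for any form, beside 0.0102%, 0.0256% and 0.0102% of all tested genes for FL, NCTAD and cIDR. An unadjusted p under 0.05 was found for 3, 4 and 5 of the 22, beside 1.14%, 1.42% and 1.37% of all tested genes. The list had a median log2 fold change of 0.118 for FL, 0.179 for NCTAD and 0.45 for cIDR against WT, beside 0.014, 0.019 and 0.01 over all tested genes. With the block 1 passed for FL, 7 for NCTAD and 10 for cIDR, all higher than in WT, beside 0.102%, 0.456% and 0.486% of all tested genes in either direction. BHLHE40 passed for each of the 3 forms, with a log2 fold change of 0.78 ± 0.08 (SE), 0.93 ± 0.08 and 1.11 ± 0.08. The angiogenic factor VEGFA and the vasodilator peptide ADM passed for NCTAD and for cIDR, at 1.05 ± 0.11 and 0.89 ± 0.11 for VEGFA and at 1.34 ± 0.22 and 1.47 ± 0.22 for ADM. The carbonic anhydrase CA12 passed for NCTAD at 3.00 ± 0.42, and the lipase inhibitor ANGPTL4 passed for cIDR at 1.96 ± 0.32. The glycolytic regulator PFKFB4 passed for NCTAD and cIDR, at 0.36 ± 0.07 and 0.67 ± 0.07, and so did the HIF prolyl hydroxylase EGLN3, at 0.51 ± 0.09 for each. The glucose transporter SLC2A1 passed for NCTAD at 0.74 ± 0.13. For cIDR the pyruvate dehydrogenase kinase PDK1 passed at 0.64 ± 0.12, the collagen prolyl hydroxylase P4HA1 at 0.43 ± 0.07 and the mTORC1 inhibitor DDIT4 at 0.31 ± 0.05. The histone demethylase KDM3A passed for cIDR against WT at 0.43 ± 0.05 and was the list gene that also passed for cIDR against FL, at 0.39 ± 0.05, where 0.0307% of all tested genes passed. The other 10 list genes, ANKRD37, BNIP3, BNIP3L, CA9, ENO2, LOX, MXI1, P4HA2, PFKFB3 and PGK1, passed in none of these.

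In batch 2, 16 of the 22 genes were above all other 12 libraries, and 0 were below, beside 14.4% of all tested genes above and 14.6% below. The median log2 ratio of batch 2 to the other batches was 1.28 over the list and 0.019 over all tested genes. NDRG1 had the largest such ratio when set beside these 22 genes, followed by DDIT4 (2.84) and PDK1 (2.77). By the mean log2 ratio of cIDR to WT within batches 1, 3 and 4, taken on log2(CPM + 0.1), NDRG1 was again the largest at 3.25, followed by ANGPTL4 at 2.06 and CA12 at 1.94. For NCTAD, CA12 was larger, at 3.05 against 2.80 for NDRG1. DDIT4 and PDK1 were at 0.33 and 0.48 on this axis for cIDR, so that a large batch 2 ratio did not go with a large HIF-2α ratio for them. The log2 ratio to WT was smallest in batch 2 for 1 of the 22 with FL (DDIT4), 5 with NCTAD and 2 with cIDR (CA12 and VEGFA), beside 20.8%, 19.5% and 22.4% of all tested genes, and it was so for NDRG1 with all 3 forms.

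**Figure D5:**
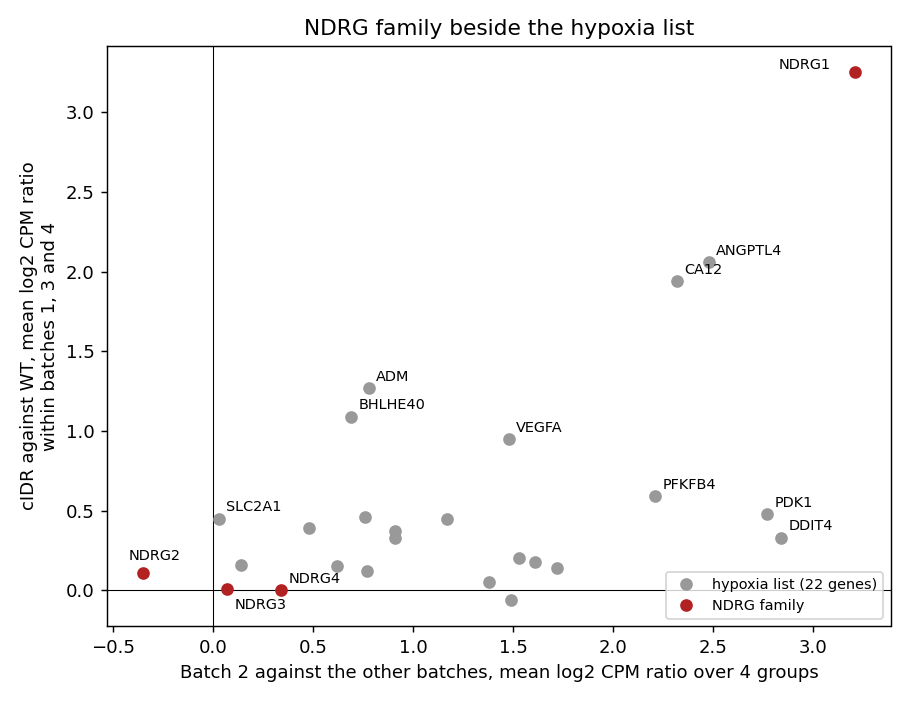
Mean log2 CPM ratio of batch 2 to the other batches over the 4 groups (x axis) and mean log2 CPM ratio of cIDR to WT within batches 1, 3 and 4 (y axis), both with 0.1 added to CPM, for the 4 NDRG genes (red) and the 22 hypoxia genes (grey). NDRG1 lies at 3.21 and 3.25, the largest on both axes, and the other NDRG genes lie between −0.35 and 0.34 on the x axis and between 0 and 0.11 on the y axis.

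Of 20 regulators and partners of NDRG proteins, 19 were tested, SGK3 being the one that was not. In each comparison with WT the transfected gene EPAS1 was the one that passed, in both models, at 7.16 ± 0.49 (log2 fold change ± SE) for FL, 7.29 ± 0.50 for NCTAD and 7.95 ± 0.51 for cIDR in the group model. HIF1A, which encodes the other oxygen-regulated alpha subunit, was at 239 to 409 CPM over all libraries, and ARNT, its common partner, at 31.6 to 44.9 CPM. MYCN was at 2590 to 3410 CPM in all libraries, and its batch 2 range of 2760 to 2940 CPM lay inside that of the other batches. MYC was far lower, at 0.088 to 0.283 CPM in batch 2 and 0.485 to 2.55 CPM elsewhere.

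Among the kinases, SGK1 was at 42.9 to 52.6 CPM in batch 2 and at 111 to 139 CPM in the other 12 libraries. GSK3A was at 87.5 to 98.2 against 107 to 144 CPM, and MAX, the partner of MYC and MYCN, at 64.8 to 68.5 against 72 to 80.9 CPM. Like MYC, these 3 genes lay below all other libraries in batch 2. The stress-induced factor EGR1, at 138 to 171 against 51 to 97 CPM, and VHL, the ubiquitin ligase subunit that removes HIF, at 45.6 to 46.7 against 34.6 to 44.5 CPM, were the 2 that lay above. Of the 19 tested genes of this list, 5 lay below the other 12 libraries in batch 2 and 2 above. Over all tested genes the shares were 14.6% below and 14.4% above. The median log2 ratio of batch 2 to the other batches was −0.07 over the list and 0.019 over all tested genes. EGLN1 was at 71.4 to 88.1 CPM in batch 2 and 48.5 to 74.4 CPM elsewhere, and LDHA, which makes lactate, at 25.6 to 27.4 against 25.7 to 32.9 CPM, so that both overlapped.

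Genes with the pattern most like each member were taken by Pearson's r of log2 CPM over the 16 libraries, among 12373 genes with a symbol, and are given as a description. The 16 libraries share the batch structure, so r over them also reflects whether 2 genes differ in batch 2 in the same or in opposite directions. The 5 nearest to NDRG1 were C8orf58 (r 0.981), NXPH4 (0.963), CABP7 (0.958), SLC18A1 (0.956) and TH (0.956). NXPH4, which encodes a neurexophilin, was at 0.209 to 2.71 CPM outside batch 2 and at 23.5 to 41.8 CPM in it. SLC18A1, a vesicular monoamine transporter, was at 59.3 to 113 and at 109 to 174 CPM. TH, the first enzyme of catecholamine synthesis, was at 0.856 to 3.6 and at 5.68 to 10.2 CPM.

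With the mean of each batch subtracted, the nearest to NDRG1 were TRIM29 (r 0.97), NXPH4 (0.955), RTL8C (0.954), C8orf58 (0.954) and EGFL7 (0.939). C8orf58 and NXPH4 were in both sets. TRIM29, a tripartite-motif protein, was at 1.32, 19.1, 2.24 and 1.32 CPM in WT in batches 1 to 4, at 16.4, 92.1, 16.2 and 18.7 CPM in FL, at 19.2, 40.1, 17.7 and 18.3 CPM in NCTAD and at 34.5, 71.8, 26.2 and 27.7 CPM in cIDR. As with NDRG1, its WT library was the lowest of each batch and its batch 2 library the highest of each group. Over the 12 libraries without batch 2, a set added after the values were seen, the nearest was BHLHE40 (r 0.992), followed by TRIM29 (0.975), SLC18A1 (0.965), C8orf58 (0.96) and EPAS1 (0.954). BHLHE40 stood at 11, 15.9, 10.7 and 9.42 CPM in WT, 15.7, 31.7, 17.2 and 17.3 CPM in FL, 21.7, 29.9, 19.7 and 18.1 CPM in NCTAD and 24, 35, 21.7 and 20.8 CPM in cIDR. It kept the order WT, FL, NCTAD, cIDR in batches 1, 3 and 4 and, like NDRG1, had FL above NCTAD in batch 2.

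The other members had other neighbours. Nearest to NDRG2 were CHRNA3, a nicotinic receptor subunit (r 0.955), RMND5B (0.944) and MFSD5 (0.942), and CHRNA3 was at 392 to 409 CPM in batch 2 against 497 to 559 CPM elsewhere. Nearest to NDRG3 were the sorting nexin SNX3 (0.919), STAMBPL1 (0.901) and GABRQ (0.882). Nearest to NDRG4 were TNFAIP2 (0.969), C1orf226 (0.968) and PDGFRB (0.967), of which TNFAIP2 was at 10.8 to 11.9 CPM in batch 2 against 5.16 to 9.44 CPM elsewhere. With batch means subtracted the nearest were ARHGEF10L, CHRNA3 and PI4K2A for NDRG2 (0.826 to 0.83), HPS5, MITF and EI24 for NDRG3 (0.909 to 0.911) and PAXIP1-DT, MIR23AHG and VPS9D1 for NDRG4 (0.861 to 0.911). Between members, r over the 16 libraries was −0.571 for NDRG1 with NDRG2 and 0.63 for NDRG1 with NDRG4, and with batch means subtracted it was 0.392 and −0.117.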

How the data were processed

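RNA-seq of 16 libraries was analysed from the authors' deposited tables of estimated counts per gene and of TPM, which Salmon made, as the table's name says. The submitters' processing notes name fastp, STAR, Salmon, featureCounts and GRCh38, without versions or roles, and the annotation release is not given in the sources used here. Estimated counts were rounded, and genes were filtered with filterByExpr by group. edgeR 4.0.16 (TMM, quasi-likelihood test) in R 4.3.3 was fitted to all 16 libraries with group as the only term. The batch as replicate block was the paired alternative, since the labels give each replicate number as a batch. Deviations from group means correlated with a mean r of 0.308 between same-numbered libraries and −0.0945 between others. P-values were Benjamini-Hochberg adjusted over 19530 genes. CPM used TMM-scaled totals, and log2 CPM for correlations a prior count of 2. Contrasts of batch 2 and ratios within batches had no test. Genes named were the members, those most like them (5 for NDRG1, 3 for the others), list genes that passed in either model (the other hypoxia genes only to give the whole list), and a fixed set of regulators (EPAS1, HIF1A, ARNT, MYCN, EGLN1, VHL, LDHA and SGK1, and another gene not reported here). Other genes were named after their values were seen: those that lay apart in batch 2 and MYC. Members and lists were chosen with earlier results of these data known. Alternatives were median-of-ratios size factors, DESeq2 1.42.0, no filter, only the 8 libraries compared, limma 3.58.1 on log2(TPM + 1) and log2(TPM + 0.1), batch 2 left out, and each library left out. Leaving out each library with the block was added after seeing the data. The fitting script was tested on simulated data. Figures used matplotlib 3.10.9 in Python 3.11.15.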

Additional observations from a re-analysis of the deposited data

Results flagged for a closer look

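In each group the batch 2 library was far from the other 3 in NDRG1, by Dixon's ratio of the gap to the range (past its 95% critical value for 4 samples). It stood at 109 CPM in WT against 4.15 to 4.8 CPM (ratio 0.994), at 210 CPM in FL against 17.4 to 20.3 CPM (0.985), at 161 CPM in NCTAD against 27.2 to 36.7 CPM (0.929) and at 233 CPM in cIDR against 38.4 to 52.3 CPM (0.929). NDRG2 in FL of batch 2, at 21 CPM against 24.9 to 25.4 CPM, was also apart (0.882). The family was chosen on its levels in batch 2 against the other batches, so these ratios follow from that choice and are a description, not a test. Chance flags about 1 in 20 groups, a rate that cannot be set against values chosen in this way, and the values named share a batch.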

How the results depend on the processing

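The NDRG1 results depended on batch 2. The count of NDRG genes that passed changed from 0 to 1 (NDRG1) with the replicate block for NCTAD and cIDR against WT, and with batch 2 left out, in either model, for FL, NCTAD and cIDR against WT and for cIDR against FL. NDRG1 was then at 2.03 and 2.49 with the block, at 2.09, 2.83, 3.28 and 1.20 without batch 2, and at 2.09, 2.82, 3.28 and 1.18 with both changes. For NCTAD against FL the log2 fold change of −0.06 turned to 0.46 with the block, 0.31 on log2(TPM + 1), 0.34 on log2(TPM + 0.1), 0.74 without batch 2 and 0.73 with the block as well. With each library left out in turn, with or without the block, NDRG1 ran from −0.69 to 3.93 for FL, 0.04 to 3.86 for NCTAD and 0.49 to 4.37 for cIDR against WT, from −1.09 to 1.75 for NCTAD against FL, from −0.63 to 2.25 for cIDR against FL, and from −0.57 to 1.52 for cIDR against NCTAD, with both ends set by a batch 2 library, and the count that passed ran from 0 to 1 in each comparison with WT. The block changed no other call of a member. DESeq2 gave NDRG1 no adjusted p in any comparison, at log2 fold changes of 1.13, 1.07 and 1.56 against WT.

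NDRG2, NDRG3 and NDRG4 never passed in 450 alternative values, which ran from −0.14 to 0.18, and 74 changed sign. Signs were compared on rounded values, and a value that rounds to 0 did not count as changed. NDRG3 in NCTAD against FL, at 0 in the group model, could therefore add nothing to that count. In the same order of comparisons, values with a library left out ran for NDRG2 from −0.01 to 0.12, −0.04 to 0.1, −0.04 to 0.18, −0.1 to 0.05, −0.09 to 0.13 and −0.07 to 0.15, and for NDRG4 from −0.08 to 0.11, −0.12 to 0.06, −0.09 to 0.1, −0.14 to 0.04, −0.11 to 0.08 and −0.06 to 0.13. For NDRG3 they ran from −0.11 to 0.01 and −0.04 to 0.02 for FL and cIDR against WT, −0.03 to 0.08 (cIDR against FL) and −0.02 to 0.07 (cIDR against NCTAD). NDRG3 in NCTAD ran from −0.08 to 0 against WT and from −0.05 to 0.06 against FL. On TPM with either pseudocount, the sign turned for NDRG4 in FL (−0.05) and cIDR (−0.04) against WT and in cIDR against FL (0.01), for NDRG2 in NCTAD (−0.01) and cIDR (−0.03) against WT, in cIDR against FL (−0.04) and against NCTAD (−0.01), and for NDRG3 in cIDR against FL (−0.01). It also turned for NDRG2 in cIDR against FL with the block (−0.01), for NDRG4 in cIDR against FL without the filter (0.01), and without batch 2 for NDRG4 in FL (−0.01, with the block −0.02) and cIDR (−0.01) against WT and in cIDR against FL (0.01). The cause of these changes was not tested.

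Batch 2 and the constructs were read from 1 library of each group per batch, so a batch effect on a construct cannot be told apart from a difference between single libraries. WT of batches 1, 3 and 4 held 189 to 203 NDRG1 counts, the lowest of any library, and its ratios rest on those counts.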
